A study of Mus musculus with 7 samples.

Results

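Actin, myosin and the other genes of the contractile apparatus were compared between the paracardial fat depot (pCF), beside the heart, and intra-abdominal fat (iVF). The mice were wild-type males of strain C57. Members were chosen by gene symbol alone: symbols that begin with Acta, Actb, Actc, Actg, Actn, Myh, Myl, Myo and a digit, Mybp, Tpm, Tnn, Tmod, Lmod, Cnn or Tagln, together with Des, Cald1, Ttn and Vcl, without names of pseudogenes. This gave 23 of the 9294 genes tested. By role they were 5 genes of smooth muscle (Acta2, Tagln, Myh11, Tpm2, Lmod1), 4 of striated muscle (Acta1, Actn2, Actn3, Myl4), 6 of non-muscle cells (Actb, Vcl, Cnn2, Cnn3, Myl12a, Tagln3) and 5 unconventional myosins (Myo1d, Myo1e, Myo1f, Myo6, Myo9b). There were also 2 entries named as related sequences of the tropomyosin gene Tpm3 (Tpm3-rs2, Tpm3-rs7) and Cnnm2, a metal transport protein of the cyclin M family that shares only the first letters of its symbol with the calponins. The groups were 4 pCF and 3 iVF samples of total RNA, each on 1 Affymetrix array. No treatment is named for any mouse, and ages are not given here. RNA was taken from whole homogenised tissue. The labels call the samples biological replicates and do not say whether each came from a separate animal. A p-value therefore reflects only how much these samples vary.

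Muscle and non-muscle cells pull with the same machine, in which myosin heads walk along actin filaments. Smooth muscle cells, which in fat lie in the walls of vessels, use the alpha actin Acta2, the heavy chain Myh11 and the actin-binding proteins transgelin and leiomodin, and their contraction is set by phosphorylation of a myosin light chain. Striated muscle of heart and skeleton uses its own actins, alpha-actinins and light chains, arranged in sarcomeres and switched by calcium through troponin. Every cell has non-muscle actin and myosin for its cortex and adhesions, where vinculin links actin to integrins and cadherins, and the unconventional myosins carry membranes and vesicles along actin. Many of these genes are known targets of serum response factor (SRF), which binds the CArG box.

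The promoters of 4 members are shown because the CArG box is the sequence that classical smooth muscle and cytoskeletal genes share. Each is the 250 bases before the gene start from RefSeq (build GRCm38.p6), read 5′ to 3′ on the gene's strand. Capitals mark an exact CArG box in Vcl, Cnn2 and Acta1, and in Acta2 the places where 1 of the 10 letters departs from it.
Acta2, chr19:34255374-34255623, minus strand: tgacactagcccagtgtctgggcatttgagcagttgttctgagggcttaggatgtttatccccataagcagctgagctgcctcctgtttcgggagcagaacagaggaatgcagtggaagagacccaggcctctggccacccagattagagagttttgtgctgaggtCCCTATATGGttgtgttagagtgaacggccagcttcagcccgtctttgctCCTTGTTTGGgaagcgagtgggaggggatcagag
Vcl, chr14:20929148-20929397, plus strand: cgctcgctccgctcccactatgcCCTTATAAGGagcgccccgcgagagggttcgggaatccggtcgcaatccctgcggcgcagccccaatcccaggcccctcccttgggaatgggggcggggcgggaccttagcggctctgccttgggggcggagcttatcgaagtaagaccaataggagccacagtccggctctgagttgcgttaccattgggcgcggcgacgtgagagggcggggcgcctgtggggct
Cnn2, chr10:79988350-79988599, plus strand: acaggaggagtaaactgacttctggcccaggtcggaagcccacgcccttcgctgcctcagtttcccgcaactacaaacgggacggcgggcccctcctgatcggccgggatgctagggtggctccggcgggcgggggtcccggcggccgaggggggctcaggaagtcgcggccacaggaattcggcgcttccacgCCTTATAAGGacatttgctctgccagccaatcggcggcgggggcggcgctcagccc
Acta1, chr8:123894776-123895025, minus strand: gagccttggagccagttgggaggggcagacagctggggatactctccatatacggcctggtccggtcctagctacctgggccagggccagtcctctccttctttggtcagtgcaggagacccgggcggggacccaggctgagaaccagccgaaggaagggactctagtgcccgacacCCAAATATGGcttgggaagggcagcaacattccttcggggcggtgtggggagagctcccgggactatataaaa
Of the 23 members, 16 had an entry in the promoter table. An exact box, the same on both strands, stood in the windows of 4 members (25%), the 3 above and Myo1e, against 1.47% of the 32851 windows of the table. The boxes began 227 bases before the start in Vcl, 56 in Cnn2, 73 in Acta1 and 32 in Myo1e. The Acta2 window had no exact box but 2 places with 1 letter off, which 17.5% of all windows also have at least once. Such matches describe the letters of these windows and do not show binding. Of the 4 genes with an exact box Vcl passed the test, lower in pCF, as did 2.91% of all genes. Acta1 lay below iVF on every pCF array and Cnn2 above it, and Myo1e overlapped with a difference of -0.62. Of all genes 26.7% were separate between the depots in either direction. The part of the box in these differences was not tested.

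Values are the authors' deposited log2 values, and differences are pCF minus iVF on that scale, whose highest value on each array lay between 19.81 and 19.93 and which is not calibrated to folds. The array medians lay between 5.99 and 6.37. Arrays pCF 4 and iVF 3 shared a higher ceiling (19.93) and lower 5th percentiles (3.99 and 4.0) than the other 5 arrays (4.38 to 4.44), and together form the array set of the higher ceiling. Adipocyte markers ran far below iVF on all pCF arrays, with medians of 10 genes of 6.08, 6.24, 9.44 and 9.70 on pCF 1 to 4 against 14.83, 14.68 and 16.20 on iVF 1 to 3, and on pCF 1 and 2 these medians were near that of the whole array. Thymocyte and T cell markers ran the other way, with medians of 6 genes of 11.10 to 14.17 in pCF and 9.74, 6.11 and 5.30 on iVF 1 to 3 and 3 of 6 genes higher in pCF. Markers of thymic epithelium moved with them, with 4 of 6 genes higher in pCF and medians of 11.57 to 13.04 in pCF and of 8.45, 6.72 and 5.63 on iVF 1 to 3. Brown adipocyte markers stood out on pCF 4, where Ucp1 was at 13.92, against 4.61 to 6.14 on the other pCF arrays and 4.36 to 4.84 in iVF, and Cidea at 9.38, against 5.81 to 6.47 on every other array. The part of these cell types in the members' values was not tested. Precision is limited by there being 7 arrays, and in bulk tissue fewer cells of a type and less RNA per cell cannot be told apart.

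Of the 23 members, 3 were lower in pCF and none was higher by the limma test with adjustment over all genes at a threshold of 0.05. They were vinculin (Vcl), the class I myosin Myo1d and Cnnm2. Over all 9294 genes 9.16% passed, 6.25% higher and 2.91% lower. Of the members 13.0% passed, or 9.09% without Cnnm2, all of them lower. In either direction the share among contractile genes was near that of all genes. The lower share alone was above that of all genes and rests on 2 genes (Vcl, Myo1d). Actb lay at the ceiling on all 7 arrays and had no measurable difference. Of the other 22 members, 9 had an unadjusted p under 0.05, as did 24.4% of all genes, and pCF and iVF values were fully separate in 11 (50%), 7 with pCF below and 4 with pCF above, where 26.7% of all genes were separate in this way. The median difference of these 22 members was -0.19, against 0.13 over all genes. That median over all genes fell to 0.0057 after quantile normalization was applied again and to -0.02 after centring, and the split of calls over all genes moved from 581 higher and 270 lower to 436 and 474 under the former and to 453 and 571 under cyclic loess. Vcl, Myo1d and Cnnm2 stayed past the threshold under each of these scalings.

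**Figure D1:**
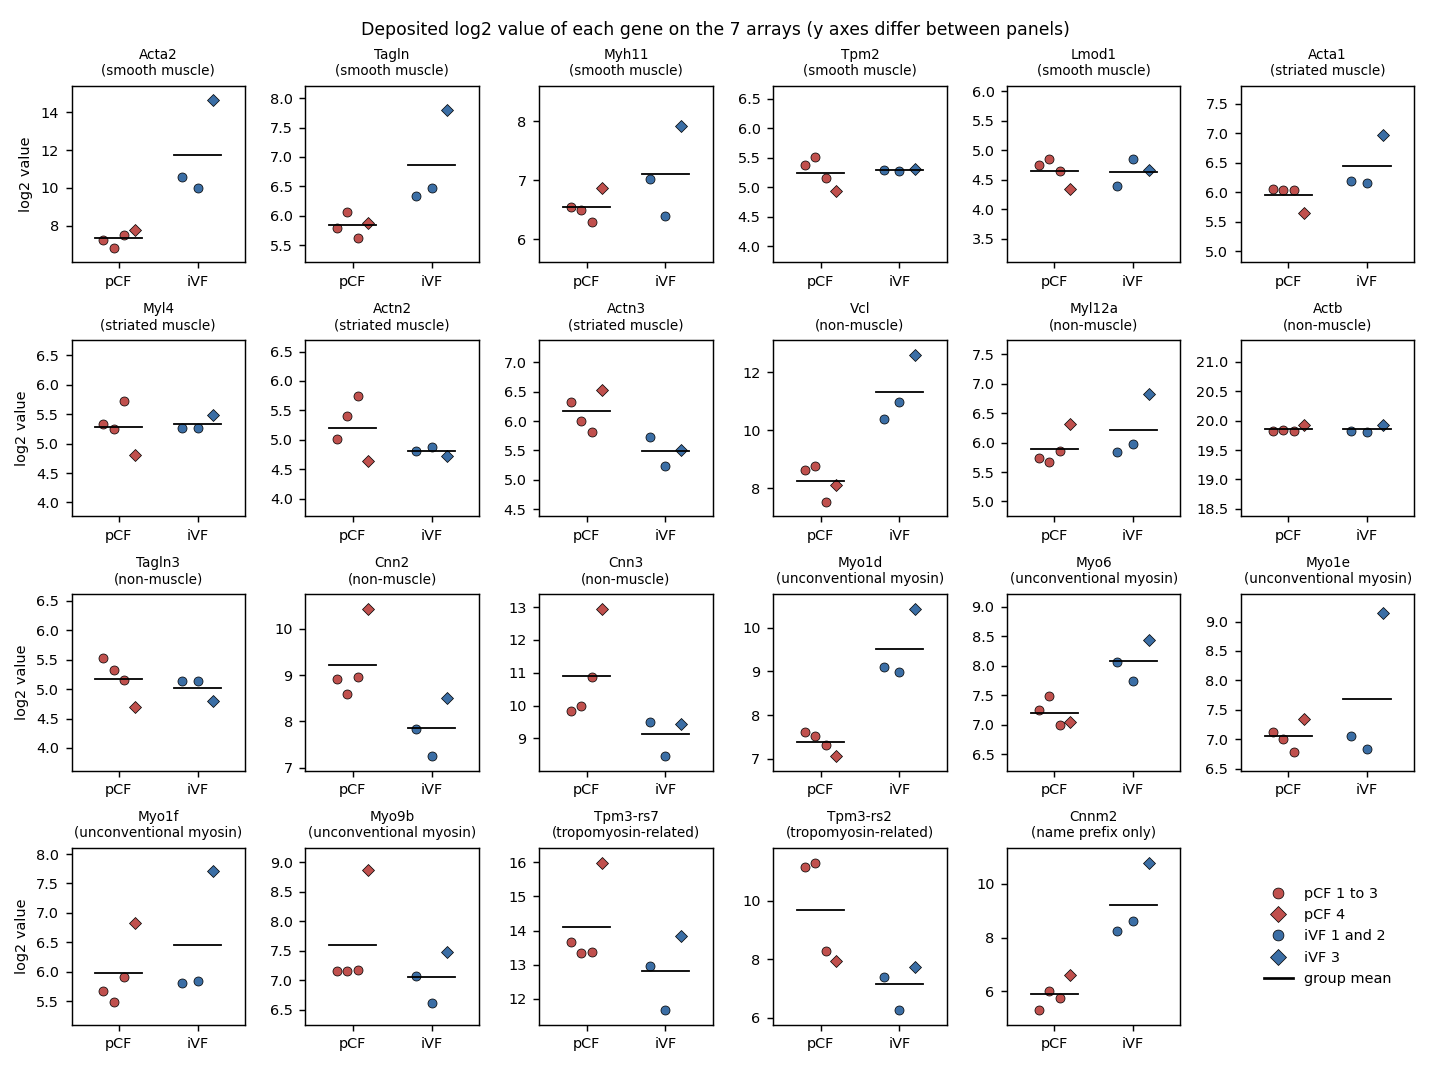
Deposited log2 value (y axis, a separate range in each panel) of the 23 genes on the 4 pCF arrays (red) and 3 iVF arrays (blue), with group means as lines and diamonds for pCF 4 and iVF 3. Acta2, Vcl, Myo1d and Cnnm2 show all pCF arrays below all iVF arrays, Cnn2 and Cnn3 the reverse, and Actb lies at the ceiling throughout.

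The smooth muscle genes were led by Acta2, which had the largest difference of all the members yet did not pass the test. Acta2, the alpha actin of vascular smooth muscle, had values of 7.25, 6.84, 7.5 and 7.77 on pCF 1 to 4 and 10.60, 9.98 and 14.63 on iVF 1 to 3. The pCF arrays lay close together and below every iVF array, while iVF 3 stood far above the other iVF arrays. The means were 7.34 ± 0.39 (SD, n = 4) and 11.74 ± 2.53 (SD, n = 3), a difference of -4.40 ± 1.08 (SE) with a 95% confidence interval of -6.99 to -1.81 and a limma adjusted p of 0.0546. Without iVF 3 the difference was -2.95 and the adjusted p 0.00847, and among the 5 arrays of the lower ceiling they were -3.09 and 0.0163. Acta2 did not pass when any other single array was left out (limma adjusted p 0.0729 to 0.132). The gene passed in 7 of 17 alternatives, with adjusted p from 0.00847 to 0.269. The single difference between pCF 4 and iVF 3 was -6.87. Actin genes are nearly identical in their coding parts, so signal from another actin in the Acta2 and Acta1 probes was not tested.

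Tagln, which encodes the actin-binding protein transgelin (SM22), lay at 5.80, 6.07, 5.62 and 5.88 on pCF 1 to 4 and at 6.34, 6.47 and 7.80 on iVF 1 to 3. All pCF arrays were again below all iVF arrays, by -1.03 ± 0.38 (SE, 95% confidence interval -1.94 to -0.11), and the gene did not pass (limma adjusted p = 0.157). Myh11, the smooth muscle myosin heavy chain, had values of 6.55, 6.49, 6.29 and 6.87 in pCF and 7.02, 6.39 and 7.93 in iVF. The depots overlapped, since iVF 2 lay within the pCF range, and the difference was -0.56 ± 0.38 (limma adjusted p = 0.437). Tpm2, beta tropomyosin, which smooth and slow striated muscle both use, lay between 4.93 and 5.51 on all 7 arrays and differed by -0.04 ± 0.20. Lmod1, a leiomodin that seeds actin filaments in smooth muscle, lay between 4.35 and 4.84 and differed by 0.01 ± 0.21. These last genes were under the array median on every array, and whether they were detected is unknown. None of the 5 smooth muscle genes passed the limma test, 2 had an unadjusted p under 0.05 (Acta2, Tagln), and the median difference of the 5 was -0.56. Other smooth muscle genes, such as Actg2, Cnn1, Des, Myl9 and Mylk, were not among the genes tested.

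Markers of vessels and stroma were set beside these values. Of 6 measured mural cell genes 1 was lower in pCF, the adhesion molecule Mcam (-5.80 ± 0.67, limma adjusted p = 0.00896). The median of the 6 was 5.54, 5.46, 5.46 and 5.67 on pCF 1 to 4 and 5.66, 5.95 and 7.65 on iVF 1 to 3, with a median difference of -0.91. The log2 of their summed linear values, to which Mcam adds most, ran from 8.01 to 8.96 in pCF and from 11.97 to 14.07 in iVF. As the scale is not calibrated to folds, this sum does not measure the mural genes as a set. Of 4 endothelial genes 2 were lower, Cdh5 and Kdr, with list medians of 5.31, 5.32, 6.47 and 6.98 on pCF 1 to 4 and 8.73, 8.73 and 11.25 on iVF 1 to 3. Fibroblast markers (median of 3) stood at 12.02 and macrophage markers (median of 5) at 13.60 on iVF 3, the array with the highest Acta2, against 8.42 to 9.15 for both lists on the other iVF arrays. In pCF these 2 medians ran from 6.05 to 7.55 and from 6.98 to 10.63, and no gene of either list passed the limma test. The part of these cell types in the Acta2 and Tagln values was not tested.

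**Figure D2:**
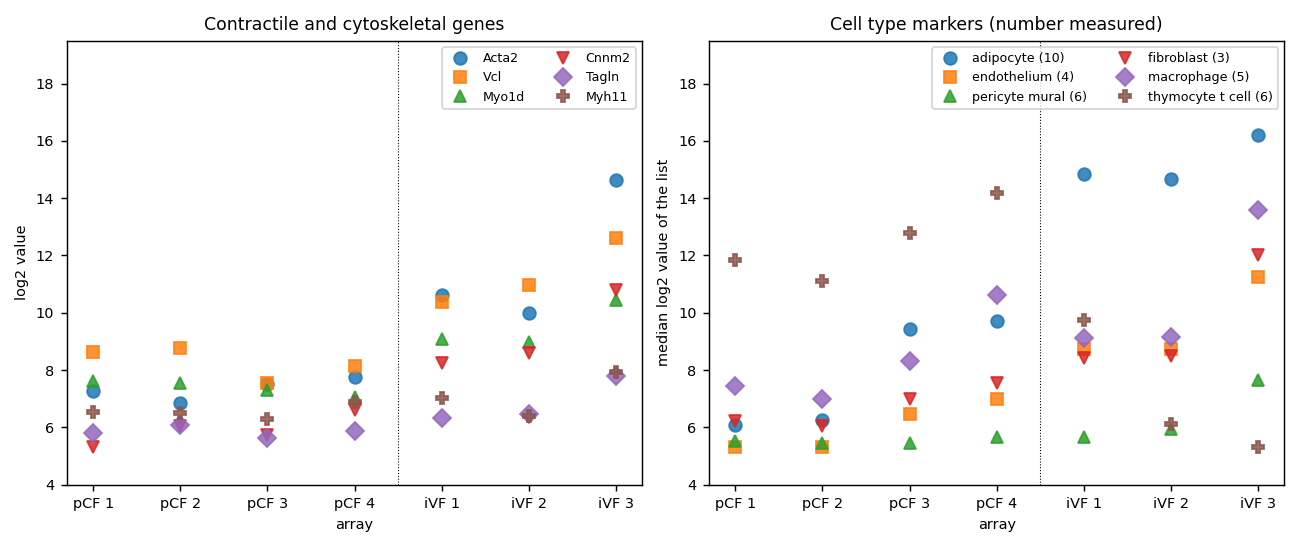
Left, log2 value of 6 member genes on each array. Right, median log2 value of 6 cell type marker lists on the same arrays, with the number of measured genes in brackets. Array iVF 3 carries the highest value of Acta2, Vcl, Myo1d, Cnnm2, Tagln and Myh11 and also of the adipocyte, endothelial, mural, fibroblast and macrophage medians, while the thymocyte median is lowest there; levels of different genes are not to be compared with each other.

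None of the 4 genes of striated muscle passed the limma test and 1 had an unadjusted p under 0.05, with differences from -0.49 to 0.67 and a median of 0.17. No troponin, striated myosin heavy chain or titin (Ttn) was among the genes tested. Acta1, the skeletal alpha actin, lay at 6.06, 6.04, 6.04 and 5.65 on pCF 1 to 4 and at 6.19, 6.16 and 6.97 on iVF 1 to 3. Every pCF array was below every iVF array, and the difference was -0.49 ± 0.26 (limma adjusted p = 0.324). Within the 5 arrays of the lower ceiling it was -0.12, and between pCF 4 and iVF 3 it was -1.32. Myl4, the atrial essential light chain, lay at 5.33, 5.26, 5.72 and 4.81 in pCF and at 5.26, 5.26 and 5.48 in iVF, under the array median on every array.

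The 2 striated alpha-actinins had positive differences. Actn3, which anchors actin at the Z disc of fast skeletal fibres, ranged from 5.81 to 6.52 in pCF and from 5.24 to 5.74 in iVF, without overlap, and differed by 0.67 ± 0.24 (95% confidence interval 0.09 to 1.25, limma adjusted p = 0.149). Actn2, its counterpart of heart and skeletal muscle, ranged from 4.64 to 5.75 in pCF and from 4.73 to 4.88 in iVF and differed by 0.40 ± 0.29 (limma adjusted p = 0.470). Actn2 was under the array median on all 7 arrays and Actn3 on 5 of them. Both were singled out after their values were seen. Since pCF lies beside the heart, markers of cardiac muscle outside the members were checked. The 3 measured of 10 (Ankrd1, Fabp3, Mb) did not pass, with a median difference of 0.25. Myoglobin (Mb, named after its values were seen) lay at 4.94, 5.44, 5.53 and 4.2 on pCF 1 to 4 and at 5.04, 4.81 and 4.81 on iVF 1 to 3. Fabp3, also picked with its values known, was under the array median on no array. It lay at 6.32, 6.13, 7.07 and 8.68 on pCF 1 to 4 and at 7.37, 6.63 and 6.42 on iVF 1 to 3. The depots overlapped, with pCF 4 highest, and Fabp3 differed by 0.25 ± 0.65 (limma adjusted p = 0.857). Its difference was -0.49 among the 5 lower-ceiling arrays and 2.27 between pCF 4 and iVF 3. The 3 measured of 12 skeletal muscle markers did not pass either, with a median difference of 0.04. Ankrd1 and Mb lay under the array median on all 7 arrays, and these 3 skeletal markers on at least 6. Whether they were detected is unknown. The 7 other cardiac and 9 other skeletal markers, and a list of 8 myogenic and endplate genes, were not analysed here.

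Among non-muscle genes vinculin stood apart. Vcl encodes the adaptor of focal adhesions and cell junctions and, in an isoform, the dense plaques of smooth muscle. Its values were 8.62, 8.78, 7.54 and 8.13 on pCF 1 to 4 and 10.39, 10.96 and 12.60 on iVF 1 to 3. All pCF arrays lay below all iVF arrays, with means of 8.27 ± 0.56 (SD, n = 4) and 11.32 ± 1.15 (SD, n = 3). The difference was -3.05 ± 0.58 (SE, 95% confidence interval -4.43 to -1.67, limma adjusted p = 0.0255), -2.36 among the 5 lower-ceiling arrays, where it did not pass (0.0541), and -4.47 between pCF 4 and iVF 3. The call ended without pCF 1 (0.0683), 2 (0.0571), 3 (0.0649) or 4 (0.0614) or iVF 2 (0.0858), and held without iVF 1 (0.0302) or iVF 3 (0.025), with 0.0127 to 0.158 over all alternatives. Between the depots the adipocyte markers differed in the same direction, with a median difference of -7.27 and 7 of 10 genes past the threshold. Endothelial (-3.58) and mural (-0.91) medians did so too, while thymocyte (5.16), thymic epithelial (4.73) and brown adipocyte (1.01) medians went the other way. Within pCF the adipocyte medians were higher on pCF 3 and 4 (9.44 and 9.70) than on pCF 1 and 2 (6.08 and 6.24), where Vcl was higher. The part of these cell types in the Vcl value was not tested.

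The 2 calponins of non-muscle cells lay higher on every pCF array than on every iVF array, and neither passed. Cnn2, a calponin that blood and endothelial cells also make, had values of 8.91, 8.59, 8.95 and 10.43 in pCF and 7.83, 7.26 and 8.50 in iVF. The difference was 1.36 ± 0.52 (95% confidence interval 0.12 to 2.59, limma adjusted p = 0.165), and it passed once array set entered the fit as a block (0.0154, with 0.0154 to 0.409 over all alternatives). Cnn3, acidic calponin, had values of 9.85, 10.001, 10.87 and 12.95 in pCF and 9.49, 8.47 and 9.45 in iVF and differed by 1.78 ± 0.78 (0.227). Array pCF 4 was highest in both. Among pCF arrays it also had the highest medians of thymocyte (14.17), thymic epithelial (13.04), adipocyte (9.70), brown adipocyte (9.38) and macrophage (10.63) markers. The same held for fibroblast (7.55), endothelial (6.98) and mural (5.67) markers. Its medians of cardiac muscle, skeletal muscle and mesothelial markers were the lowest in pCF. The part of these cell types in the Cnn2 and Cnn3 values was not tested. Cnn2 and Cnn3 were singled out after their values were seen. Myl12a, a regulatory light chain of non-muscle myosin, ranged from 5.67 to 6.31 in pCF and from 5.84 to 6.82 in iVF, and Tagln3, a neuronal relative of transgelin, from 4.70 to 5.53 and from 4.80 to 5.14, under the array median on all 7 arrays. Both overlapped between the depots and differed by -0.32 and 0.15.

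Actb, the beta actin of the cytoskeleton, often used as a reference gene, was at the ceiling in both depots. Its values were 19.82, 19.84, 19.82 and 19.93 on pCF 1 to 4 and 19.82, 19.81 and 19.93 on iVF 1 to 3, the highest value of each array within 0.1, and 19 other probes carried the same 7 values. No difference is given for it. A pseudogene entry of gamma actin, Actg-ps1, left out by its name, was at the ceiling on all 7 arrays too. A probe that names Actg1 together with Gm12715 lay between 14.98 and 16.12 in pCF and between 15.34 and 15.65 in iVF, and one that names the light chain Myl6 together with Gm8894 between 10.66 and 11.32 and between 11.19 and 12.37. Both probes carry more than 1 symbol, so they were not tested.

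Of the 5 unconventional myosins 1 was lower in pCF. Myo1d, a membrane-binding class I myosin, had values of 7.62, 7.53, 7.31 and 7.07 on pCF 1 to 4 and 9.09, 8.98 and 10.43 on iVF 1 to 3. The depots were well separated, with means of 7.38 ± 0.25 (SD, n = 4) and 9.50 ± 0.81 (SD, n = 3) and a difference of -2.12 ± 0.39 (SE, 95% confidence interval -3.05 to -1.19, limma adjusted p = 0.0236). It was -1.55 among the 5 lower-ceiling arrays, where it passed (0.0156), and -3.37 between pCF 4 and iVF 3. The call ended without pCF 1 (0.0659), 2 (0.0618), 3 (0.0649) or 4 (0.0545) or iVF 2 (0.0605), with 0.0124 to 0.135 over all alternatives.

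Myo6, the myosin that walks toward the minus end of actin and serves endocytosis, ran the same way without passing. Its values were 7.25, 7.5, 7.0 and 7.04 in pCF and 8.06, 7.75 and 8.44 in iVF, without overlap, and the difference was -0.89 ± 0.24 (limma adjusted p = 0.0683). Myo1e, a class I myosin of endocytic sites, and Myo1f, which is found in blood cells, overlapped between the depots, with the highest value on iVF 3. Myo1e ranged from 6.78 to 7.34 in pCF with 7.06, 6.83 and 9.15 on iVF 1 to 3, and Myo1f from 5.48 to 5.91 on pCF 1 to 3 and 6.82 on pCF 4 with 5.81, 5.85 and 7.72. Their differences of -0.62 and -0.49 were 0.02 and -0.14 among the 5 lower-ceiling arrays. Myo9b, a class IX myosin, lay at 7.15, 7.16, 7.18 and 8.87 in pCF and 7.07, 6.61 and 7.48 in iVF, and its difference of 0.54 ± 0.50 did not pass (0.567). Myo1e, Myo1f, Myo6 and Myo9b were singled out after their values were seen. Over the 5 genes the median difference was -0.62, and 0.12 without iVF 3.

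**Figure D3:**
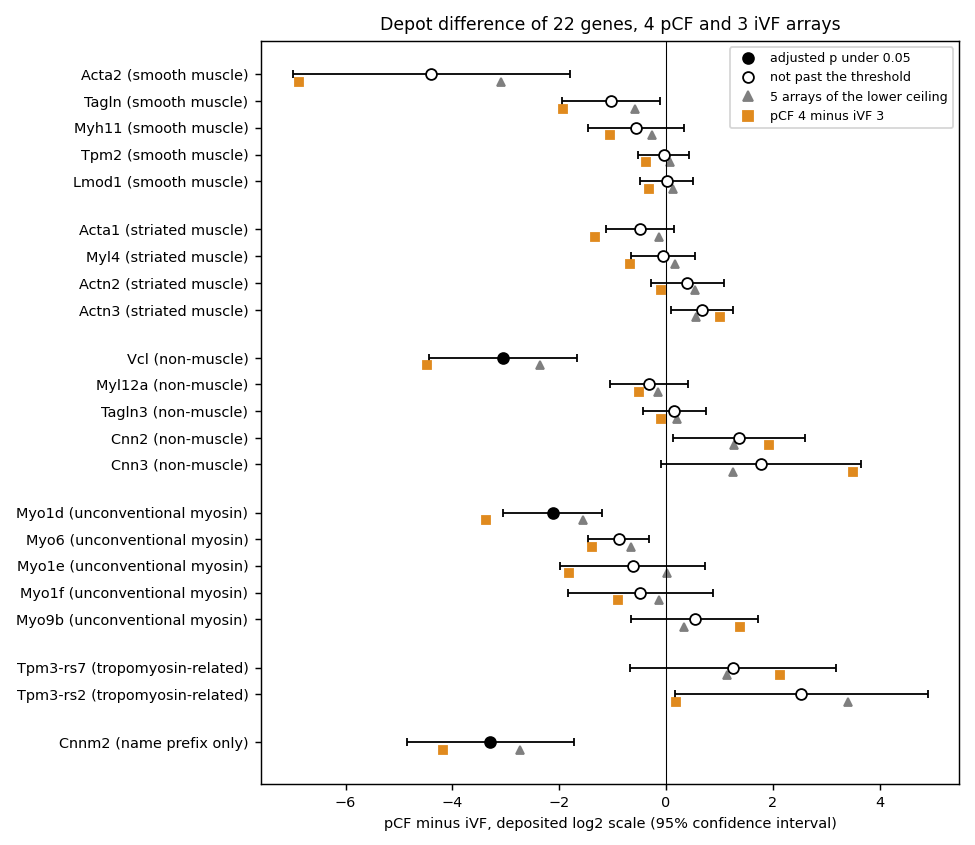
Difference of pCF minus iVF on the deposited log2 scale (x axis) for 22 genes, with limma's 95% confidence interval; filled circles passed the threshold. Triangles give the difference among the 5 lower-ceiling arrays and squares the single difference between pCF 4 and iVF 3. Vcl, Myo1d and Cnnm2 are filled and lie left of 0, and Acta2 lies farthest left with the widest interval of the smooth muscle genes.

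The 2 tropomyosin-related entries had positive differences, and neither passed. Tpm3-rs7 had values of 13.67, 13.35, 13.36 and 15.98 on pCF 1 to 4 and 12.96, 11.67 and 13.85 on iVF 1 to 3, overlapping between the depots, with pCF 4 alone above every iVF array, and differed by 1.26 ± 0.81 (limma adjusted p = 0.411). Tpm3-rs2 had 11.15, 11.29, 8.29 and 7.93 in pCF and 7.40, 6.26 and 7.74 in iVF. Its depots did not overlap, though pCF 3 and 4 were close to iVF, and the difference was 2.53 ± 0.99 (0.177), 3.41 among the 5 lower-ceiling arrays and 0.19 between pCF 4 and iVF 3. Tpm3 and its copies resemble each other closely, and which of them a value reports is uncertain. These entries were singled out after their values were seen.

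Cnnm2 is a member by the letters of its name and no contractile gene. Its values were 5.30, 6.03, 5.74 and 6.60 on pCF 1 to 4 and 8.24, 8.60 and 10.78 on iVF 1 to 3. The depots were separate, with a difference of -3.29 ± 0.66 (SE, 95% confidence interval -4.85 to -1.72, limma adjusted p = 0.0289). The call ended without pCF 1 (0.0846), 2 (0.076) or 3 (0.076) or iVF 2 (0.0832), with 0.00754 to 0.183 over all alternatives. Without Cnnm2, the members past the threshold were Vcl and Myo1d, both lower in pCF. They were 2 of 22 with Actb counted (9.09%), near the 9.16% of all genes that passed in either direction. Of all genes 2.91% were lower.

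Genes that act around the contractile machine were taken from 4 lists. In contraction signalling, the pathway from calcium to the myosin light chain, none of 8 measured of 31 listed genes passed (median difference 0.10), and 3 had an unadjusted p under 0.05. The largest difference was that of Ppp1r14b, an inhibitor of the phosphatase that relaxes myosin, with values of 9.81, 9.63, 9.37 and 10.93 in pCF and 8.40, 8.16 and 8.97 in iVF, all pCF arrays being higher (1.42 ± 0.42, limma adjusted p = 0.0894, with 0.0104 to 0.273 over all alternatives). In the programme of SRF and its coactivator myocardin none of 10 measured of 26 passed (median -0.35), and 2 had an unadjusted p under 0.05. Mustn1, a small nuclear protein of muscle and bone, had the largest difference there, with 4.49, 4.83, 4.92 and 4.82 in pCF and 6.14, 6.16 and 8.37 in iVF (-2.12 ± 0.56, 0.0664). As with Acta2, all pCF arrays were below all iVF arrays, iVF 3 was highest, and the gene passed without iVF 3 (0.014, with 0.014 to 0.291 over all alternatives). Mustn1 did not pass when any other single array was left out (limma adjusted p 0.0707 to 0.159). Srf, the gene of the factor itself and named after its values were seen, overlapped between the depots and differed by 0.21 ± 0.38.

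In the list of sarcomere and calcium coupling genes none of 9 measured of 42 passed and none had an unadjusted p under 0.05 in the limma fit, with differences from -0.33 to 0.64 and a median of 0.06. The largest was that of Ankrd1, a stress-responsive protein of cardiac muscle, at 0.64 ± 0.48. All 9 genes lay under the array median on at least 6 of the 7 arrays, and whether they were detected is unknown. Ankrd1 and Mb of the cardiac markers and all measured skeletal muscle markers (Eno3, Pygm, Tcap) belong to this list too. The results of these lists are therefore not separate. Among 16 measured of 57 actin assembly genes 1 was lower and 1 higher in pCF, with a median of 0.23. Gsn, gelsolin, which severs and caps actin filaments, had values of 8.16, 8.02, 10.41 and 11.51 in pCF and 14.79, 13.62 and 15.29 in iVF. The depots did not overlap, and the difference was -5.04 ± 0.96 (limma adjusted p = 0.0261), a call that held when pCF 4 was left out (0.0273) and ended without any other array (0.0558 to 0.0774), with 0.00946 to 0.108 over all alternatives. Actr3, a subunit of the Arp2/3 complex that branches actin, had 14.49, 14.13, 14.46 and 14.82 in pCF and 13.14, 12.54 and 13.61 in iVF, higher on every pCF array, by 1.38 ± 0.31 (limma adjusted p = 0.0403). Its direction depended on the scaling, being -0.14 after quantile normalization was applied again, and its call held only without iVF 3 (0.025) when single arrays were dropped, with 0.07 to 0.126 in the others and 0.0125 to 0.913 over all alternatives.

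**Figure D4:**
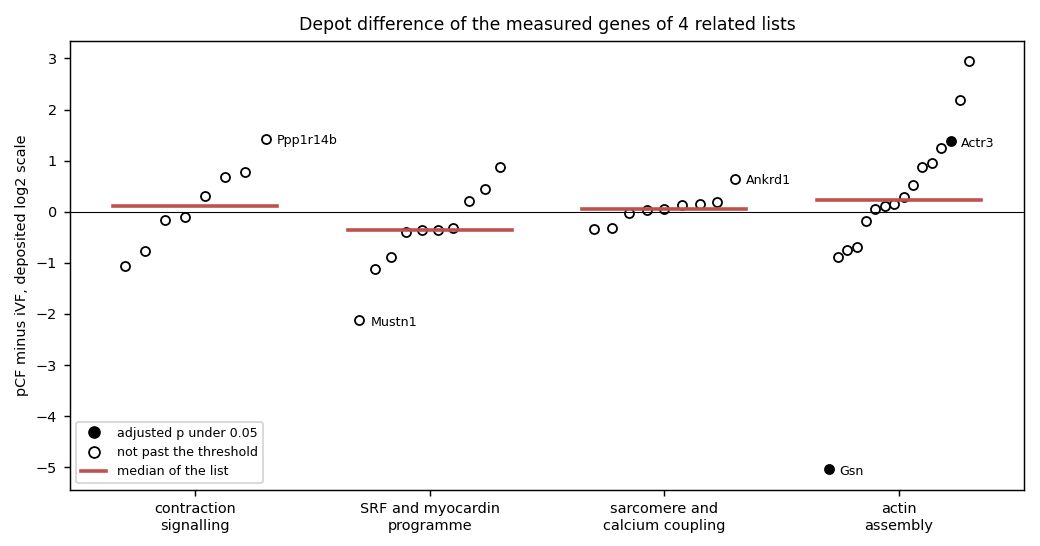
Difference of pCF minus iVF on the deposited log2 scale (y axis) for each measured gene of 4 lists of genes around the contractile machine, with the list median as a red line and filled circles for genes past the threshold. Gsn at -5.04 and Actr3 at 1.38 are filled, and the sarcomere list stays between -0.33 and 0.64.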

How the data were processed

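RNA from 4 samples of paracardial and 3 of intra-abdominal fat was hybridised to Affymetrix arrays. The authors deposited log2 values, 1 for each probe on each array. The submitters' processing notes name RMA and Affymetrix Expression Console, without versions or a genome build. The log2 scale was read from the range of the values and from RMA, while centring and the cause of the ceiling are unknown. Detection and background are unknown, as no scanner output was analysed here.

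Of 11949 probes 9352 had 1 symbol; symbols were updated through Entrez identifiers matched for 5789 probes to RefSeq (GRCm38.p6, for names), and the probe with the highest mean was kept for each of 9294 genes. No member had several probes, and no dim gene was left out. limma 3.58.1 in R 4.3.3 (lmFit, eBayes, two-sided, 5 residual and 1.68 prior degrees of freedom) fitted all 7 arrays with no covariate, with Benjamini-Hochberg adjustment over all genes. Genes within 0.1 of an array's highest value count as at the ceiling. Of the 22 members below the ceiling 3 had equal values on at least 2 arrays (13.6%, against 19.1% of all genes, to 4 decimals).

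Values were given in full for genes past the threshold, for classical smooth, striated and non-muscle genes, and for up to 4 passing genes (or the largest) of each list. The members, classes, lists and alternatives were chosen with earlier results of these data known. Alternatives were a filter on the dimmest 25% of genes, a repeated quantile normalization, centring by array median, cyclic loess, trended robust eBayes, blocks, the mean over probes, and fits without arrays. Tables were joined in Python 3.11.15 (pandas 2.3.3) and figures drawn with matplotlib 3.10.9.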

Additional observations from a re-analysis of the deposited data

Results flagged for a closer look

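In 3 of 27 genes examined, 1 of the 4 paracardial arrays lay far from the other 3 by Dixon's criterion, which chance meets in about 1 of 20 groups. In each case it was pCF 4, one of the arrays of the higher ceiling and the one with the highest brown adipocyte marker Ucp1 (13.92, against 4.61 to 6.14 on the other paracardial arrays). Tpm3-rs7 was at 15.98 there against 13.35 to 13.67 on the others. Myo9b was at 8.87 there against 7.15 to 7.18. Acta1 was at 5.65 there against 6.04 to 6.06. Groups of 3, such as the intra-abdominal arrays, cannot be examined this way.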

How the results depend on the processing

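Over the 17 alternatives 15 of 22 members kept the sign of their difference, Acta2, Vcl, Myo1d and Cnnm2 among them, and 7 changed it at least once (Tagln3, Tpm3-rs7, Tpm2, Lmod1, Myl4, Myo1e, Myo1f), none of which passed in any fit. With the replicate number as a block no gene passed in limma (2134 genes and 7 members at an unadjusted p under 0.05). All members, non-muscle genes, unconventional myosins, Cnnm2 and actin assembly then each had a count of 0. The labels do not say whether equal numbers pair the samples. Deviations from group means correlated at 0.048, 0.047 and -0.50 for same-numbered arrays and at -0.379 to 0.49 for the others. With so few arrays these correlations cannot decide it. With array set as a block 1654 genes and 5 members passed, 1 in smooth muscle, 2 in non-muscle, 2 in contraction signalling and 1 in the SRF list. With only pCF 3 and 4 of the paracardial arrays 1 gene and 0 members passed, with 0 in non-muscle, unconventional myosins, Cnnm2 and actin assembly, and the SRF median was -0.14 (-0.1361). Among the 5 lower-ceiling arrays alone smooth muscle had 1, non-muscle 0, contraction signalling 2 and the SRF list 1. Without the dimmest 25% of genes smooth muscle had 1, and the medians of striated muscle and of the sarcomere list were -0.0571 and -0.3148. Smooth muscle also had 1 after centring, cyclic loess and trended robust eBayes, contraction signalling and the SRF list had 1 after repeated quantile normalization, centring and cyclic loess, and actin assembly had 1 with trended robust eBayes. Repeated quantile normalization gave a median of 1.0398 for the tropomyosin-related entries and turned Actr3 to -0.1417. The causes were not tested. Leaving out 1 array gave 185 to 833 genes, 0 to 4 members, 0 to 1 in smooth muscle, non-muscle, unconventional myosins, Cnnm2, the SRF list and actin assembly, and a median of unconventional myosins from -1.0458 to 0.1159. Genes under the array median on all 7 arrays (Tpm2, Lmod1, Myl4, Actn2, Tagln3) or on 5 (Actn3, Myl12a, Myo1f) are limited by the range of the arrays. So are the genes of the sarcomere list and Actb at the ceiling.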
